A study of Rattus norvegicus with 4 samples.

Results

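The genes of TGF-beta, BMP and activin signalling were followed in brain tissue of rats (Rattus norvegicus) with intracerebral hemorrhage, a bleed inside the brain. Members were the rows of the expression table whose symbols name the TGF-beta and BMP ligands and receptors, inhibin and activin subunits, growth differentiation factors, Smads and latent TGF-beta binding proteins, with Fst, Fstl1, Fstl3, Nog, Chrd, Smurf1 and Smurf2. This gave 62 of 17853 genes, of which 39 averaged 1 RPKM or more across the libraries and 23 did not. RPKM corrects read numbers for gene length and for library size, so levels of different genes can be compared on this scale. The rule also took in 4 genes by symbol alone that are neither ligand, receptor nor Smad (Bmp1, Bmp2k, Tgfb1i1 and Tgfbrap1).

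The study comprised 4 polyadenylated RNA libraries, 1 for each combination of side and age. Ipsilateral tissue came from the hemisphere with the hemorrhage and contralateral tissue from the opposite hemisphere, at 13 and at 21 months of age, and all 4 groups carried the label intracerebral hemorrhage. There was no library from a rat without a hemorrhage, so the contralateral tissue was the only reference. RNA of 9 brains was extracted and pooled. Whether 9 brains stand behind each library or behind the series, and the strain, sex, way of inducing the hemorrhage and time after it, are not stated in the labels.

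Ligands of this superfamily bind pairs of type I and type II serine/threonine kinase receptors, which phosphorylate Smad transcription factors. TGF-beta and activin receptors act mainly through Smad2 and Smad3 and BMP receptors through Smad1, Smad5 and Smad9, while Smad4 is the shared partner and Smad6 and Smad7 inhibit. In the injured brain TGF-beta is made largely by microglia, macrophages and astrocytes and is known for its part in scar formation and in restraining inflammation, and BMPs are known for steering astrocyte and oligodendrocyte fate.

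Summed RPKM lay between 388632 and 402100 in the 4 libraries, on a scale already corrected for library size. Mitochondrial transcripts made up 18.5% and 20.6% of the ipsilateral and 23.3% and 24.1% of the contralateral sums. Neuronal, oligodendrocyte and astrocyte markers were abundant in all 4 libraries, which fits the label brain tissue: Snap25, a synaptic vesicle fusion protein, was between 298 and 460 RPKM, and Mbp, a myelin protein, between 697 and 1025 RPKM. The choroid plexus transcript Ttr lay between 656 and 1767 RPKM and was lower in the ipsilateral library at each age. In bulk tissue such as this, fewer cells of a type and less RNA per cell cannot be told apart. Depth is unknown because only RPKM values were used, and each ratio below compares 2 single libraries with no replicate check unless a fit is named.

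Among the 39 members that passed the mean of 1 RPKM, the ligand Tgfb1 and its receptors Tgfbr1 and Tgfbr2 had the highest mean log2 side ratios. They were higher on the side of the hemorrhage at both ages, by 3.76-fold and 3.65-fold for Tgfb1, 3.33-fold and 2.62-fold for Tgfbr1 and 3.28-fold and 1.86-fold for Tgfbr2 at 13 and 21 months. The other ligands that passed this mean, the BMP and activin receptors and the Smads lay closer to equality between the sides, while Gdf15, below the mean, is described with its family. Ratios below are log2 ratios of RPKM + 1, a scale that understates the change of low genes. At 13 months 3 of these 39 members were at least 2-fold higher on the ipsilateral side, against 7.19% of all 12160 genes that passed it, and 0 were at least 2-fold lower, against 0.0658%. At 21 months 2 were at least 2-fold higher, against 5.61% of all genes, and 0 lower, against 0.288%. The same 2 genes, Tgfb1 and Tgfbr1, passed 2-fold at both ages, against 4.75% of all genes. These counts are near the background, and the members' median side ratios of 0.05 at 13 months and 0.18 at 21 months lay beside all-gene medians of 0.01 and 0.09. With mitochondrial genes left out of the scaling the median at 13 months was -0.04.

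**Figure D1:**
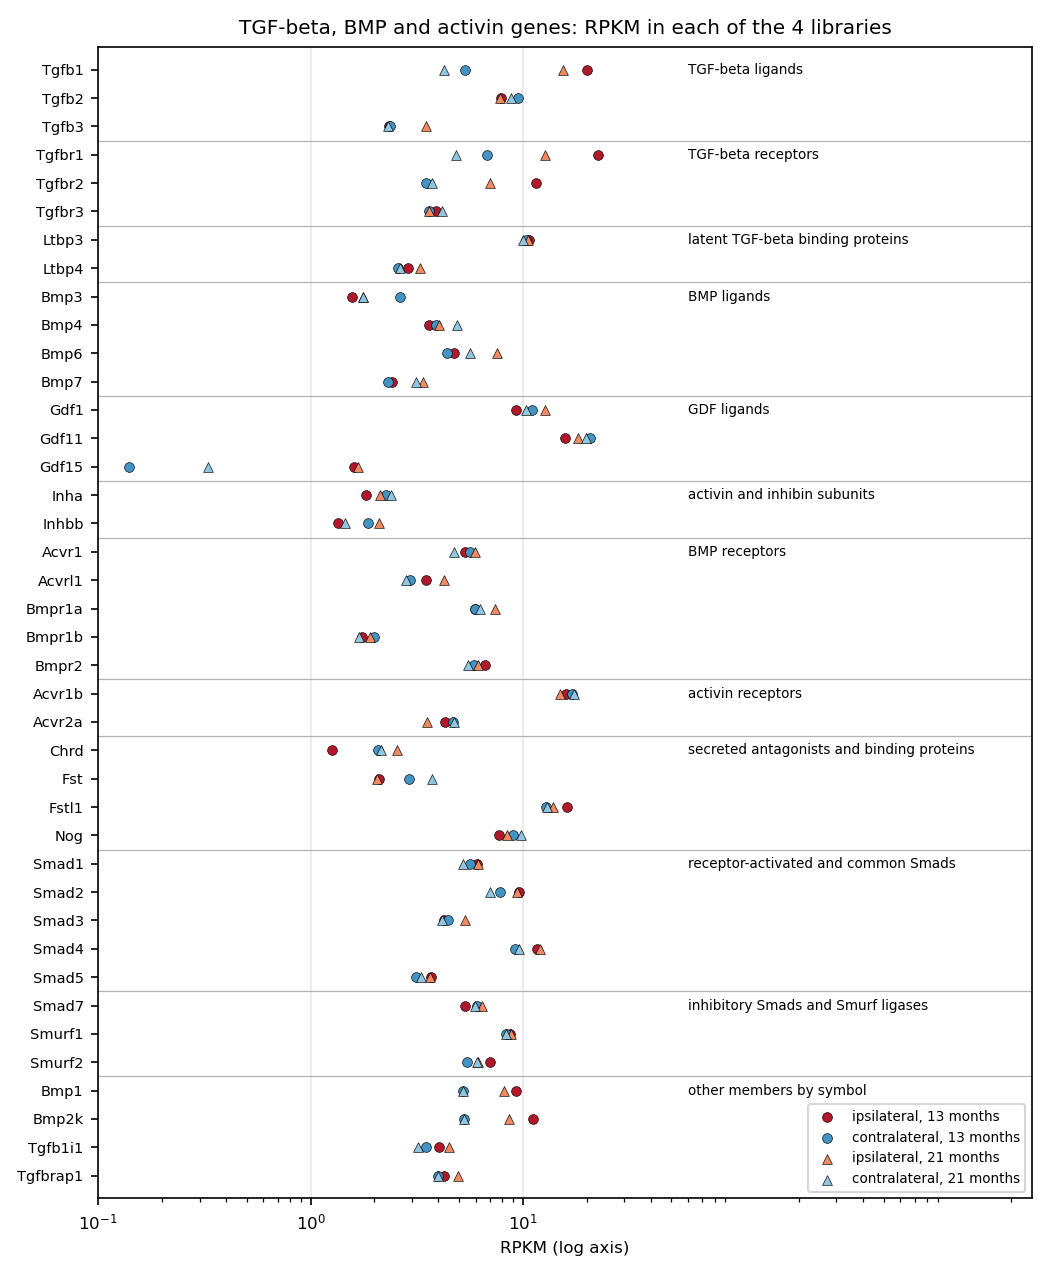
RPKM of the 39 members that passed the mean of 1 RPKM, and of Gdf15, in each of the 4 libraries, on a log axis. Circles are 13 months, triangles 21 months, red shades ipsilateral and blue shades contralateral; the red and blue points are apart for Tgfb1, Tgfbr1 and Tgfbr2 and lie close together for most BMP receptors and Smads.

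As a summary over both ages, the 4 libraries were fitted with limma for side, with age added as a second term. Its 1 residual degree of freedom is the difference of the side ratio between the ages. The fit weighs this against a spread shared over all 12160 genes, with 19.5 prior degrees of freedom and a prior SD of 0.173. Its p-values therefore rest mostly on the spread between these ages pooled over all genes. They rest little on the spread of the gene itself and not on replicate animals. With Benjamini-Hochberg adjustment over all 12160 genes, 5 members rose on the ipsilateral side, against 13.3% of all genes, and 0 fell, against 0.814%. The 5 were Tgfb1, Tgfbr1, Tgfbr2, Bmp2k and Bmp1, and 34 members did not pass. The members' share of calls was near the background in both directions. At an unadjusted p under 0.05 in the same limma fit, 1 member was lower, Fst, against 4.47% of all genes. Without the filter on low values limma passed 0 of all 17853 genes, and the 5 calls were lost, with adjusted p from 0.0866 for Tgfb1 to 0.209 for Tgfbr2.

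The ligand Tgfb1 (ENSRNOG00000020652, chromosome 1), the main TGF-beta of immune and injury responses, had 20.08 RPKM in the ipsilateral and 5.34 RPKM in the contralateral library at 13 months, and 15.45 and 4.23 RPKM at 21 months. Both ipsilateral libraries lay far above both contralateral ones. Its log2 side ratios were 1.73 and 1.65, and in limma it rose by 1.69 ± 0.17 (SE, 2 libraries per side; Benjamini-Hochberg adjusted p = 1.15e-07), rank 279 of 12160 genes from the top. Tgfb2, the isoform prominent in neurons and glia, had 7.91, 9.51, 7.80 and 8.83 RPKM in ipsilateral and contralateral tissue at 13 and then at 21 months. Here both ipsilateral libraries were slightly below both contralateral ones, with side ratios of -0.24 and -0.16 (limma adjusted p = 0.539). Tgfb3, the third mammalian isoform, had 2.34, 2.38, 3.50 and 2.32 RPKM in the same order. Its 21-month ipsilateral library alone stood out, the side ratios were -0.02 and 0.44, and it did not pass limma (adjusted p = 0.530).

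The mix of TGF-beta isoforms therefore differed between the sides. Within the summed RPKM of the 3 isoforms, Tgfb1 made up 66.2% and 57.8% in the ipsilateral libraries at 13 and 21 months and 31.0% and 27.5% in the contralateral libraries. Tgfb2 was the leading isoform contralaterally, with 55.2% and 57.4%, and had 26.1% and 29.2% ipsilaterally. The isoform sum was 30.33 and 26.75 RPKM ipsilaterally and 17.23 and 15.38 RPKM contralaterally. Of the 3 isoforms Tgfb1 carried this gap, since Tgfb2 was not higher ipsilaterally and Tgfb3 was the smallest share in each library.

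**Figure D2:**
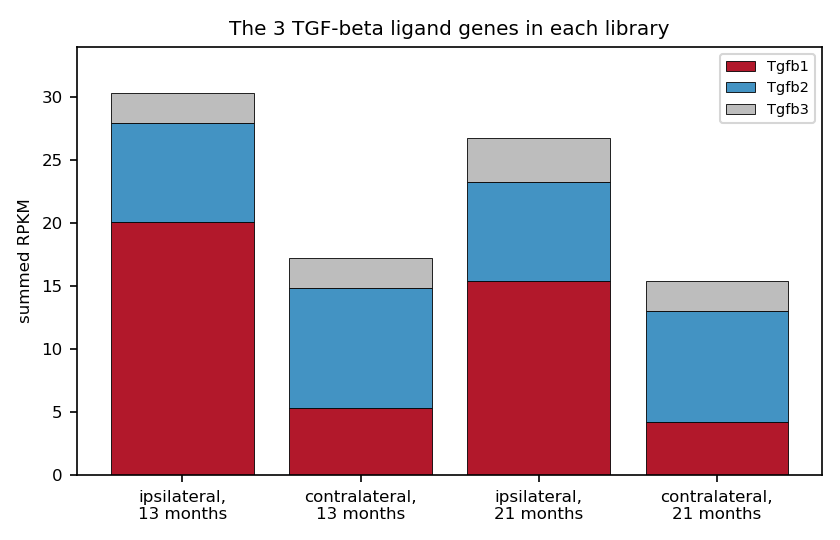
Stacked bars of the RPKM of Tgfb1, Tgfb2 and Tgfb3 in each library, from 0. The Tgfb1 segment is 20.08 and 15.45 RPKM on the ipsilateral side and 5.34 and 4.23 RPKM on the contralateral side, while the Tgfb2 segment stays between 7.80 and 9.51 RPKM.

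The signalling receptors were also higher on the side of the hemorrhage. Tgfbr1 (ENSRNOG00000007036, chromosome 5), the type I receptor kinase, had 22.61 and 6.80 RPKM in ipsilateral and contralateral tissue at 13 months and 12.71 and 4.86 RPKM at 21 months. Both ipsilateral libraries were above both contralateral ones, with the 13-month ipsilateral library highest. The side ratios were 1.598 and 1.226, and Tgfbr1 rose in limma by 1.41 ± 0.17 (SE, 2 libraries per side; adjusted p = 2.24e-06). By RPKM it was the highest of all 62 members in the 13-month ipsilateral library, rank 6 in the 21-month ipsilateral library, and rank 11 and 20 in the contralateral libraries at 13 and 21 months. Tgfbr2 (ENSRNOG00000013265, chromosome 8), the type II receptor that binds TGF-beta and activates Tgfbr1, had 11.50 and 3.51 RPKM at 13 months and 6.97 and 3.74 RPKM at 21 months. The ipsilateral libraries were again both higher, but the 21-month one lay between the 13-month ipsilateral and the contralateral values. The side ratios were 1.47 and 0.75, and Tgfbr2 rose in limma by 1.11 ± 0.19 (SE, 2 libraries per side; adjusted p = 0.000125).

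The co-receptor betaglycan, Tgfbr3, which presents ligand and favours TGF-beta2, showed no such pattern. It had 3.89, 3.63, 3.63 and 4.16 RPKM in ipsilateral and contralateral tissue at 13 and then at 21 months, and the sides overlapped (ratios 0.08 and -0.16). Its paralog Tgfbr3l stayed at or below 0.61 RPKM. Summed over Tgfbr1 and Tgfbr2, receptor RPKM was 34.11 and 19.68 ipsilaterally against 10.31 and 8.60 contralaterally. Tgfbr1 held 66.3% of that sum ipsilaterally and 66.0% contralaterally at 13 months, and 64.6% and 56.5% at 21 months.

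The upstream sequences of the 3 genes are shown because these members rose together; they are the 250 bases before each RefSeq start on build GRCr8, read 5′ to 3′ on the gene's strand. Each was searched on both strands for the Smad palindrome GTCTAGAC, the Smad box CAGACA, the GC-rich Smad element GGCGCC, the AP-1 site TGANTCA, the GC box GGGCGG, the CCAAT box and the TATA box TATAAA. Matches are in capitals. The windows are chr1:90324062-90324311 (plus strand) for Tgfb1, chr5:66449148-66449397 (plus strand) for Tgfbr1 and chr8:124761470-124761719 (minus strand) for Tgfbr2.
Tgfb1: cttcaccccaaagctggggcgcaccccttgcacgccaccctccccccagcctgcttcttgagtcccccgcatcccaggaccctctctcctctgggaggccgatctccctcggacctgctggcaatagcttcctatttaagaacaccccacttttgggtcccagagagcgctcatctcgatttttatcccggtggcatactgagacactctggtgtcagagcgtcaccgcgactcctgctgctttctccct
Tgfbr1: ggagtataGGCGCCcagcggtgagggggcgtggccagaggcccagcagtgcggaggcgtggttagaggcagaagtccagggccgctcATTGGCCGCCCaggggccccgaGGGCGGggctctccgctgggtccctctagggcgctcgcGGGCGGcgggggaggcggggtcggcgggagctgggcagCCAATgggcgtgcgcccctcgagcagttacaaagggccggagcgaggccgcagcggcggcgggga
Tgfbr2: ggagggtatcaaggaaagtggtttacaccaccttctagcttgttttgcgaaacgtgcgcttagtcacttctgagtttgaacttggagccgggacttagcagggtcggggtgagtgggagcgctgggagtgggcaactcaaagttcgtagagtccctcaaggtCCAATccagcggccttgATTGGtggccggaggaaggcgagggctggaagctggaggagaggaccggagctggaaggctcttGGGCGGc
The Tgfb1 window held none of the 7 motifs. The Tgfbr1 window held 1 GGCGCC, 3 GGGCGG and 2 CCAAT matches, of which 1 GGGCGG match and 1 CCAAT match, both on the opposite strand, directly adjoin in 1 run of capitals. The Tgfbr2 window held 1 GGGCGG and 2 CCAAT matches. GC content was 60%, 75.6% and 58% in this order. Over all 33469 RefSeq windows of this length GGGCGG occurred in 30.5%, CCAAT in 34.02%, GGCGCC in 8.69%, CAGACA in 17.2%, TATAAA in 12.9%, TGANTCA in 6.34% and GTCTAGAC in 0.173%. Of the members, 51 had an entry, with 56 windows, whose median GC content was 65.2% against 51.2% for all windows. GGGCGG occurred in 64.3%, GGCGCC in 23.2% and CAGACA in 14.3% of these 56 windows, and GTCTAGAC in 0 of them. A match is a description of letters, and no match says only that they are not in this window.

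Proteins that hold TGF-beta in a latent complex in the matrix were nearly level between the sides. Ltbp3, by far the highest of the latent TGF-beta binding proteins, had 10.66, 10.36, 10.62 and 10.03 RPKM in ipsilateral and contralateral tissue at 13 and then at 21 months, with side ratios of 0.04 and 0.08. Ltbp4 had 2.87, 2.58, 3.29 and 2.63 RPKM and ratios of 0.11 and 0.24. Both were marginally higher in the ipsilateral libraries. Ltbp1 and Ltbp2 did not reach the mean of 1 RPKM. Ltbp2, at 0.55 and 0.33 RPKM ipsilaterally and 0.19 and 0.14 RPKM contralaterally, did not overlap between the sides, at levels where single values are least certain.

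Among BMP ligands, which signal in adult brain to neural stem cells and glia, Bmp6 was the highest. It had 4.75, 4.37, 7.53 and 5.65 RPKM in ipsilateral and contralateral tissue at 13 and then at 21 months. Its 21-month libraries were both above its 13-month libraries, and so were those of Bmp7, at 2.42, 2.31, 3.38 and 3.15 RPKM. The age ratios were 0.57 ipsilaterally and 0.31 contralaterally for Bmp6, and 0.36 and 0.33 for Bmp7, all within 2-fold. Bmp4 had 3.63, 3.89, 4.01 and 4.91 RPKM and side ratios of -0.08 and -0.24. Bmp3, an atypical member that opposes other BMPs, had 1.56, 2.63, 1.77 and 1.76 RPKM and ratios of -0.50 and 0.01, so only the 13-month contralateral library stood apart. Bmp2, below the mean of 1 RPKM, had 1.07, 0.73, 0.90 and 0.81 RPKM. The sum of Bmp2, Bmp4, Bmp6 and Bmp7 was 11.87 and 11.30 RPKM on the ipsilateral and contralateral side at 13 months, and 15.82 and 14.52 RPKM at 21 months. Bmp5 stayed at or below 0.52 RPKM, and Bmp8a, Bmp8b and Bmp15 had means of at most 0.1525 RPKM. No BMP ligand passed limma.

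Of the growth differentiation factors, Gdf11, a close relative of myostatin that signals through activin receptors, was the highest member of all in the 13-month contralateral library. It had 15.85, 20.75, 18.26 and 19.79 RPKM in ipsilateral and contralateral tissue at 13 and then at 21 months. Both ipsilateral libraries were below both contralateral ones, by side ratios of -0.37 and -0.11, which did not pass limma. Gdf1, a Nodal-related factor, had 9.27, 11.02, 12.78 and 10.36 RPKM and ratios of opposite sign, -0.23 and 0.28. Its RefSeq gene overlaps Cers1 and Upf1, and its reads may be shared with them.

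Gdf15, a stress-induced and distant member of the family, had larger folds than Tgfb1 but a mean of 0.94 RPKM, so it was outside the counts. It had 1.61 and 1.68 RPKM in the ipsilateral and 0.14 and 0.33 RPKM in the contralateral libraries at 13 and 21 months. The sides did not overlap, and the folds were 11.5 and 5.09 (log2 ratios of RPKM + 1 of 1.20 and 1.01). The RefSeq gene of Gdf15 overlaps that of Lrrc25, a gene of myeloid cells, which had 16.1 and 12.04 RPKM ipsilaterally and 1.27 and 0.67 RPKM contralaterally. Whether reads of Lrrc25 were counted to Gdf15 was not tested, and the level of Gdf15 is therefore uncertain. Gdf10 had between 0.49 and 0.99 RPKM, and Gdf2, Gdf5, Gdf6, Gdf7 and Gdf9 had means of at most 0.1725 RPKM.

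The inhibin and activin subunits were low. Inha, the alpha chain that makes inhibins, had 1.83, 2.26, 2.12 and 2.40 RPKM in ipsilateral and contralateral tissue at 13 and then at 21 months (side ratios -0.20 and -0.12). Inhbb, the activin B chain, had 1.35, 1.86, 2.10 and 1.45 RPKM, with ratios of opposite sign, -0.28 and 0.34. Inhba, the activin A chain, had 0.94, 1.12, 0.68 and 0.99 RPKM, with both ipsilateral libraries below both contralateral ones, and was under the mean of 1 RPKM. Inhbc and Inhbe, chiefly liver genes, had means of at most 0.01 RPKM.

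Receptors of the BMP and activin branches kept nearly constant levels. Summed over Acvr1, Acvrl1, Bmpr1a, Bmpr1b, Bmpr2, Acvr1b and Acvr2a, RPKM was 43.41 and 44.11 in ipsilateral and contralateral tissue at 13 months, and 44.05 and 43.14 at 21 months. Acvr1b, the type I receptor of activins, was the highest of them, with 16.00, 17.06, 14.88 and 17.42 RPKM in the same order; the ipsilateral libraries were both the lower (ratios -0.09 and -0.21). The activin type II receptor Acvr2a, with 4.29, 4.69, 3.54 and 4.74 RPKM, had the same order of sides and ratios of -0.11 and -0.34. Acvr1c and Acvr2b had means of 0.54 and 0.86 RPKM.

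Acvrl1, the endothelial type I receptor for BMP9 and BMP10, had 3.49, 2.94, 4.27 and 2.82 RPKM in ipsilateral and contralateral tissue at 13 and then at 21 months. It was higher in both ipsilateral libraries, with ratios of 0.19 and 0.46, the highest mean ratio of the BMP receptors, and did not pass limma (adjusted p = 0.268). Bmpr2, the BMP type II receptor, had 6.63, 5.88, 6.14 and 5.49 RPKM (ratios 0.15 and 0.14). Bmpr1a, with 5.92, 5.94, 7.36 and 6.25 RPKM, and Acvr1, with 5.34, 5.62, 5.96 and 4.73 RPKM, overlapped between the sides. Bmpr1b was the lowest of the group, with 1.74, 1.98, 1.90 and 1.69 RPKM and ratios of -0.12 and 0.11.

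Of the secreted antagonists, follistatin (Fst), which binds activins, had the lowest mean side ratio of all members that passed the mean of 1 RPKM. Its RPKM was 2.10 and 2.91 in ipsilateral and contralateral tissue at 13 months and 2.05 and 3.73 at 21 months. Both ipsilateral libraries were lower than both contralateral ones, with ratios of -0.33 and -0.63. In limma the difference was -0.48 ± 0.17 (SE, 2 libraries per side), and its adjusted p of 0.0692 did not pass. It did pass with a pseudocount of 0.1 RPKM (adjusted p = 0.0416) and with median-ratio scaling of the libraries (adjusted p = 0.0371). Noggin (Nog), a BMP trap, had 7.69, 8.98, 8.45 and 9.82 RPKM and ratios of -0.20 at both ages. Chordin (Chrd), another BMP trap, had 1.26, 2.08, 2.56 and 2.15 RPKM; the 13-month ipsilateral library was the low one, and the side ratios were -0.45 and 0.18. Fstl1, a secreted glycoprotein related to follistatin, had 16.22, 12.89, 13.88 and 12.95 RPKM, with both ipsilateral libraries above both contralateral ones and ratios of 0.31 and 0.09. Fstl3, at 0.64, 0.35, 0.41 and 0.30 RPKM, was below the mean of 1 RPKM.

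Inside the cell, none of the Smads tested passed limma, and their side ratios were small. Smad4, the common partner, had 11.66, 9.23, 11.98 and 9.58 RPKM in ipsilateral and contralateral tissue at 13 and then at 21 months. Smad2 had 9.56, 7.83, 9.34 and 7.03 RPKM. The sides did not overlap for either gene, and the side ratios were 0.31 and 0.29 for Smad4 and 0.26 and 0.36 for Smad2. Neither passed limma, with adjusted p of 0.306 for Smad4 and 0.287 for Smad2. Smad3, the other TGF-beta Smad, had 4.26, 4.46, 5.36 and 4.14 RPKM and overlapped between the sides (ratios -0.05 and 0.31).

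The BMP-activated Smad1 had 6.10, 5.63, 6.18 and 5.21 RPKM, and Smad5 had 3.68, 3.13, 3.66 and 3.31 RPKM, in the same order of libraries. Both were higher in each ipsilateral library, with ratios of 0.10 and 0.21 for Smad1 and 0.18 and 0.11 for Smad5. Smad9, the remaining BMP Smad, had 0.86, 0.99, 0.90 and 1.11 RPKM. The inhibitory Smads, which are themselves induced by the pathway, lay close between the sides: Smad7 had 5.32, 6.10, 6.41 and 5.98 RPKM (ratios -0.17 and 0.09) and Smad6 between 0.89 and 0.93 RPKM. Of the ubiquitin ligases that remove Smads and receptors, Smurf1 had 8.70, 8.33, 8.79 and 8.30 RPKM and Smurf2 7.01, 5.47, 6.14 and 6.08 RPKM, with ratios of 0.06 and 0.07 and of 0.31 and 0.01.

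Among the genes included by symbol alone, Bmp2k and Bmp1 both rose in limma. Bmp2k (ENSRNOG00000002040, chromosome 14), a cytoplasmic kinase named for its induction by BMP2, had 11.14 and 5.27 RPKM in ipsilateral and contralateral tissue at 13 months and 8.59 and 5.26 RPKM at 21 months. The sides were well apart, with ratios of 0.95 and 0.62, and it rose by 0.78 ± 0.17 (SE, 2 libraries per side; limma adjusted p = 0.00228). Its RefSeq gene overlaps Paqr3, whose level was between 2.80 and 3.45 RPKM with no order by side. Bmp1 (ENSRNOG00000010890, chromosome 15) is not a BMP ligand but a tolloid-type metalloprotease that processes procollagens, cleaves chordin and releases latent TGF-beta. It had 9.27 and 5.22 RPKM at 13 months and 8.18 and 5.22 RPKM at 21 months, with ratios of 0.72 and 0.56. It rose by 0.64 ± 0.17 (SE, 2 libraries per side; limma adjusted p = 0.0105), a call that was lost when mitochondrial genes were left out of the scaling (0.55, adjusted p = 0.0590). Tgfb1i1, a focal adhesion adaptor, had 4.04, 3.51, 4.51 and 3.22 RPKM and Tgfbrap1, a receptor-associated protein, 4.27, 3.99, 4.93 and 3.97 RPKM, and neither passed.

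**Figure D3:**
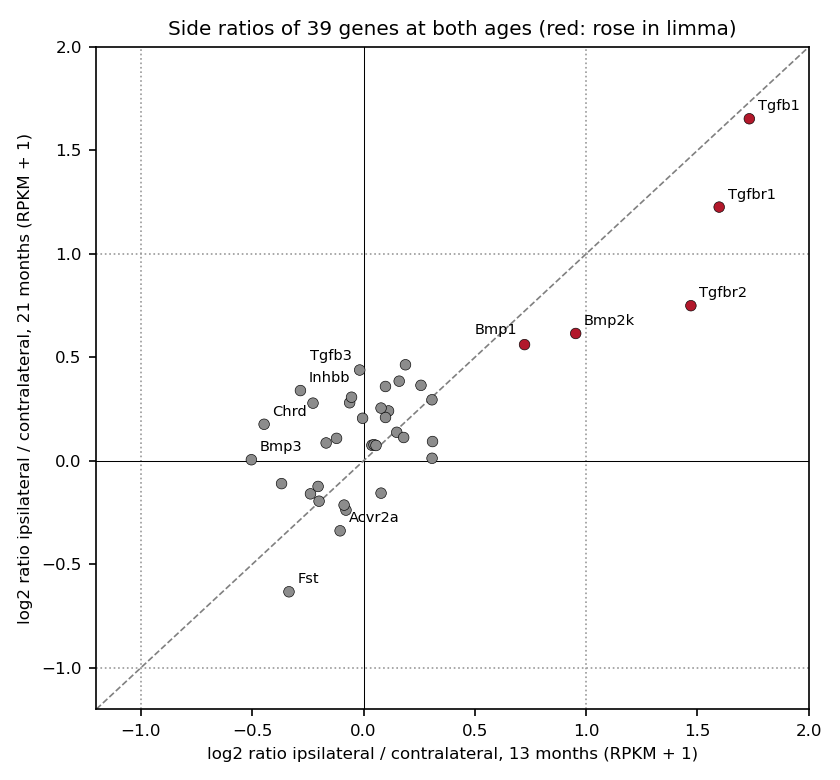
Log2 ratio of ipsilateral to contralateral RPKM + 1 at 13 months (x axis) and 21 months (y axis) for the 39 members with a mean of at least 1 RPKM; red points rose in limma, dotted lines mark 2-fold and the dashed line equal ratios. Tgfb1, at 1.73 and 1.65, lies near the dashed line, Tgfbr2, at 1.47 and 0.75, lies well under it, and Fst, at -0.33 and -0.63, is the lowest point.

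Across the 39 members, 18 (46.2%) had both ipsilateral libraries above both contralateral ones, against 34.4% of all 12160 genes, and 7 (17.9%) had both below, against 22.1%. The small ratios among these moved with the scaling. With mitochondrial genes left out of the scaling, 11 members were above and 13 below, against 26% and 34.5% of all genes under that scaling, the 7 lost from the first group being Bmpr2, Fstl1, Ltbp3, Ltbp4, Smurf1, Smurf2 and Tgfbrap1. With median-ratio scaling 14 were above and 9 below, against 30.6% and 28.1%. All 7 genes of the second group, Tgfb2, Gdf11, Inha, Acvr1b, Acvr2a, Fst and Nog, were still below under both of these scalings. Smad2, Smad4, Smad1 and Smad5 stayed above under both. The side ratios had opposite signs at the 2 ages in 11 of the 39 members, Tgfb3, Tgfbr3, Bmp3, Gdf1, Inhbb, Acvr1, Bmpr1a, Bmpr1b, Chrd, Smad3 and Smad7.

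Between the ages, 0 of the 39 members differed by 2-fold in either direction on either side. The background over all genes was 0.321% higher and 0.658% lower at 21 months ipsilaterally, and 0.206% higher and 0.132% lower contralaterally. The age ratios (21 against 13 months) ran from -0.78 to 0.66 ipsilaterally and from -0.41 to 0.33 contralaterally. On the ipsilateral side the lowest 3 were Tgfbr1 at -0.78, Tgfbr2 at -0.65 and Tgfb1 at -0.36, and the highest was Chrd at 0.66. Among all 12160 genes, 1.74% had an ipsilateral age ratio at or below that of Tgfbr1 and 3.18% at or below that of Tgfbr2. On the contralateral side Tgfbr1 was also the lowest member, at -0.41, with 1.23% of genes at or below it, while Tgfbr2 stood at 0.07. The side ratio at 21 months minus that at 13 months was -0.08 for Tgfb1, -0.37 for Tgfbr1 and -0.72 for Tgfbr2. With 1 library per group, none of these age differences has a test, and each shares its libraries with the side ratios above.

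Genes that TGF-beta is known to induce were described from a list of 19, of which 16 passed the mean of 1 RPKM. Of these 16, 8 rose on the ipsilateral side in limma, 0 fell and 8 did not pass, against 13.3% of all genes that rose and 0.814% that fell, and the median side ratios were 0.57 at 13 months and 0.59 at 21 months, beside 0.01 and 0.09 for all genes. Tgfbi, a secreted matrix protein named for its induction by TGF-beta, had 47.9 and 33.49 RPKM ipsilaterally and 3.48 and 3 RPKM contralaterally at 13 and 21 months, ratios of 3.45 and 3.11. Tagln, an actin-binding protein of contractile cells, had 114.33 and 135.56 RPKM against 30.65 and 27.67 RPKM, ratios of 1.87 and 2.25. The sides were wide apart for both genes (limma adjusted p of 9.13e-12 for Tgfbi and 9.57e-09 for Tagln).

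The other 6 genes of this list that rose were the matrix genes Postn, Fn1, Col3a1 and Col1a1, the Smad corepressor Tgif1 and the cell cycle inhibitor Cdkn1a. Fn1, fibronectin, had 16.8 and 11.73 RPKM ipsilaterally and 4.85 and 4.55 RPKM contralaterally. The direct feedback genes of the pathway did not pass: Smad7, Skil, a Smad corepressor, with 16.3, 13.24, 12.53 and 12.36 RPKM in ipsilateral and contralateral tissue at 13 and then 21 months, and Pmepa1, which sequesters Smads, with 65.64, 47.85, 47.42 and 49.7 RPKM. Ctgf, a matricellular protein, had 7.5, 8.66, 7.29 and 9.72 RPKM and side ratios of -0.18 and -0.37, and also did not pass. Unlike Tagln, Acta2, which is also on the mural cell and fibroblast list, overlapped between the sides and did not pass. It had 16.05, 14.33, 13.66 and 15.91 RPKM and side ratios of 0.15 and -0.21. Many genes of this list are made by macrophages, reactive astrocytes and fibroblasts and respond to other signals too.

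Of 15 BMP response genes 10 passed the mean of 1 RPKM, and 1 rose in limma, 0 fell and 9 did not pass, a share near the 13.3% of all genes that rose. The median side ratios were -0.07 and 0.12. The one that rose was Id3, an inhibitor of helix-loop-helix factors, with 15.81 and 16.69 RPKM ipsilaterally and 10.54 and 9.14 RPKM contralaterally (ratios 0.54 and 0.80, limma adjusted p = 0.00787). Its relatives Id1, with ratios of 0.27 and 0.16, and Id2, with 0.16 at both ages, did not pass, and Id4 had ratios of -0.27 and -0.51. Msx1, a homeobox target of BMPs, had ratios of -0.38 and -0.27, and Hey1 of -0.65 and 0.21.

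**Figure D4:**
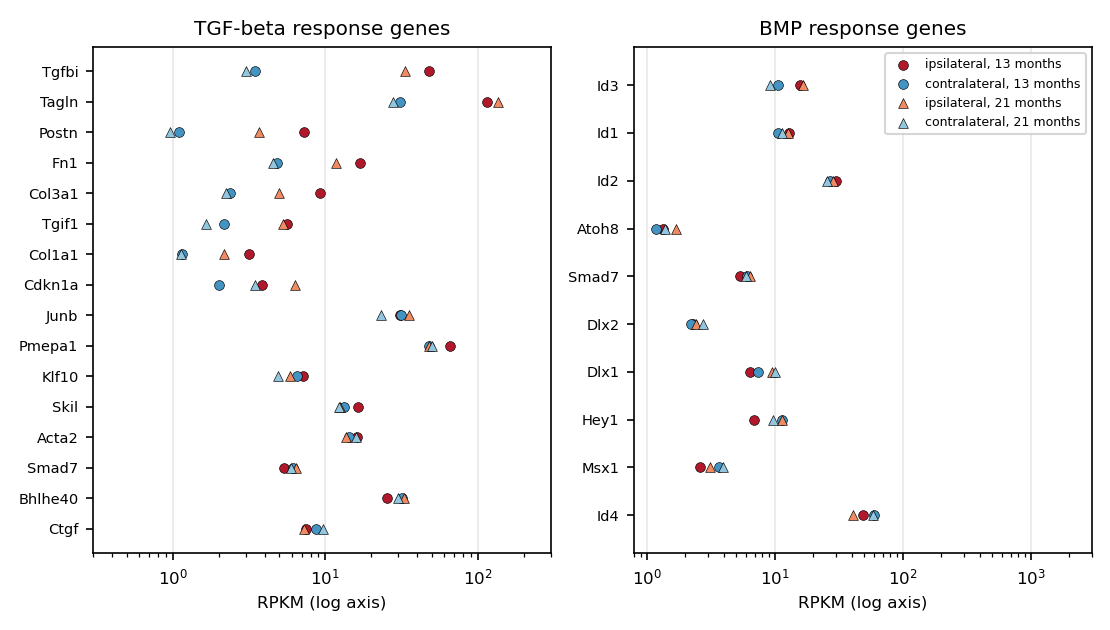
RPKM (log axis) of the TGF-beta response genes (left) and BMP response genes (right) with a mean of at least 1 RPKM, in each of the 4 libraries, ordered by mean side ratio. Tgfbi and Tagln have both ipsilateral libraries far to the right of the contralateral ones, while Id1 and Id2 lie within narrow ranges.

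Other extracellular modulators of the pathway numbered 39, of which 35 were in the table and 22 passed the mean of 1 RPKM. In limma 4 rose, 1 fell and 17 did not pass, against 13.3% of all genes that rose and 0.814% that fell, so the share that rose was near the background. The median side ratios were -0.06 and 0.05. Thbs1, thrombospondin-1, an activator of latent TGF-beta, had 6.15 and 4.89 RPKM ipsilaterally and 0.41 and 0.33 RPKM contralaterally (ratios 2.34 and 2.15, limma adjusted p = 1.80e-09). Eng, endoglin, a co-receptor best known on endothelium, had 12.18 and 10.14 against 4.92 and 4.34 RPKM (ratios 1.15 and 1.06, limma adjusted p = 3.92e-05). Nrros, which tethers latent TGF-beta on microglia and macrophages, had 4.72 and 2.39 against 1.07 and 1.18 RPKM (ratios 1.47 and 0.64, limma adjusted p = 0.000323). All 3 had both ipsilateral libraries above both contralateral ones.

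The remaining gene of this list that rose was Dcn, the TGF-beta-binding proteoglycan decorin, with ratios of 0.66 and 0.45 (limma adjusted p = 0.0295). Sostdc1, a secreted BMP antagonist, fell, with 5.12 and 5.06 RPKM ipsilaterally and 7.81 and 11.13 RPKM contralaterally (ratios -0.526 and -1.001, limma adjusted p = 0.00356). Sostdc1 is also a choroid plexus marker, and Ttr fell beside it (ratios -0.87 and -0.75). Grem1, a secreted BMP antagonist, was lower in both ipsilateral libraries without passing limma, with ratios of -0.47 and -0.38. Of 19 intracellular regulators 16 passed the mean of 1 RPKM, and 2 rose in limma, 0 fell and 14 did not pass, again near the 13.3% of all genes that rose. Dab2, an endocytic adaptor that links TGF-beta receptors to Smads, had 24.2 and 12.9 RPKM ipsilaterally and 3.88 and 3.40 RPKM contralaterally. Tgif1 had 5.57 and 5.29 against 2.18 and 1.64 RPKM, and the median side ratios of this list were 0.09 and 0.15.

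Most markers on the lists for microglia, for monocytes and macrophages and for neutrophils were higher ipsilaterally, as were Tgfb1, Tgfbr1 and Tgfbr2. Whether the cells behind these markers were resident or came from the blood was not tested. Of 10 microglia markers 8 were in the table, with P2ry12 and Gpr34 not matched, and 7 passed the mean of 1 RPKM. Of these 7, 6 rose in limma, against 13.3% of all genes, with median side ratios of 1.50 at both ages and summed RPKM of 281 and 250 ipsilaterally against 93.9 and 86.4 contralaterally. Csf1r, a receptor of all microglia and macrophages, had ratios of 1.50 and 1.54, of like size to those of Tgfb1, whereas the homeostatic microglia marker Tmem119 had 0.18 and 0.57 and did not pass. Of 10 monocyte and macrophage markers 9 passed that mean and 8 rose, with median ratios of 3.59 and 3.38 and summed RPKM of 2157 and 1261 ipsilaterally against 116 and 63.2 contralaterally. In this list Ccr2, a marker of newly arrived monocytes, was near the floor and not tested. It had 0.67 and 0.33 RPKM ipsilaterally and 0.27 and 0 RPKM contralaterally at 13 and 21 months. The 4 neutrophil markers that passed the mean of 1 RPKM all rose, with median ratios of 2.71 and 1.76. So did Cd4 and Cd8a, the 2 of the T and NK cell list that passed it. Msr1, Mmp9 and Cd8a were under 1 RPKM in both contralateral libraries and passed that mean only through the ipsilateral ones. Their rise is therefore partly set by the filter. Of the neutrophil markers below it, Mmp8 and Cxcr2 were higher ipsilaterally. Ngp was lower, at 0.06 RPKM in both ipsilateral libraries against 0.17 and 0.21 RPKM contralaterally. The other genes of the T and NK cell list in the table, Cd3d, Cd3e, Cd3g, Nkg7 and Gzmb, averaged at most 0.5875 RPKM and were not tested. Each was higher in both ipsilateral libraries than in both contralateral ones, an order that 34.4% of the 12160 genes that passed the mean also had. Their values lay near the floor, where single values are least certain. Gzmb, for example, had 0.12 and 0.06 RPKM ipsilaterally and 0 and 0.01 RPKM contralaterally. Ipsilateral age ratios were -0.93 for Aif1, a marker of microglia and macrophages, and -0.78 for Mrc1, a marker of perivascular macrophages, beside -0.78 for Tgfbr1. The part of these cells in the higher Tgfb1, Tgfbr1 and Tgfbr2 was not tested.

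Markers of other cells moved less. For comparison, 13.3% of all 12160 genes rose in limma and 0.814% fell. Of 8 astrocyte markers only Gfap, raised in reactive astrocytes, rose (ratios 1.37 and 1.85), and the list's medians were -0.13 and 0.12. Of 7 endothelial markers 0 rose and 0 fell in limma (medians 0.10 and 0.00), with adjusted p down to 0.0530 for Vwf. Of 9 mural cell and fibroblast markers 2 rose, Col1a1 and Dcn (medians 0.21 and 0.03). Of 8 oligodendrocyte markers none passed (medians -0.14 and 0.33), with adjusted p down to 0.0742 for Cldn11. Of 10 neuronal markers 1 fell, Nefm (medians -0.43 and -0.21), and of 7 choroid plexus markers 5 fell (medians -0.49 and -0.75). The part of these cells in the small ratios of the BMP ligands, receptors and antagonists was not tested.

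**Figure D5:**
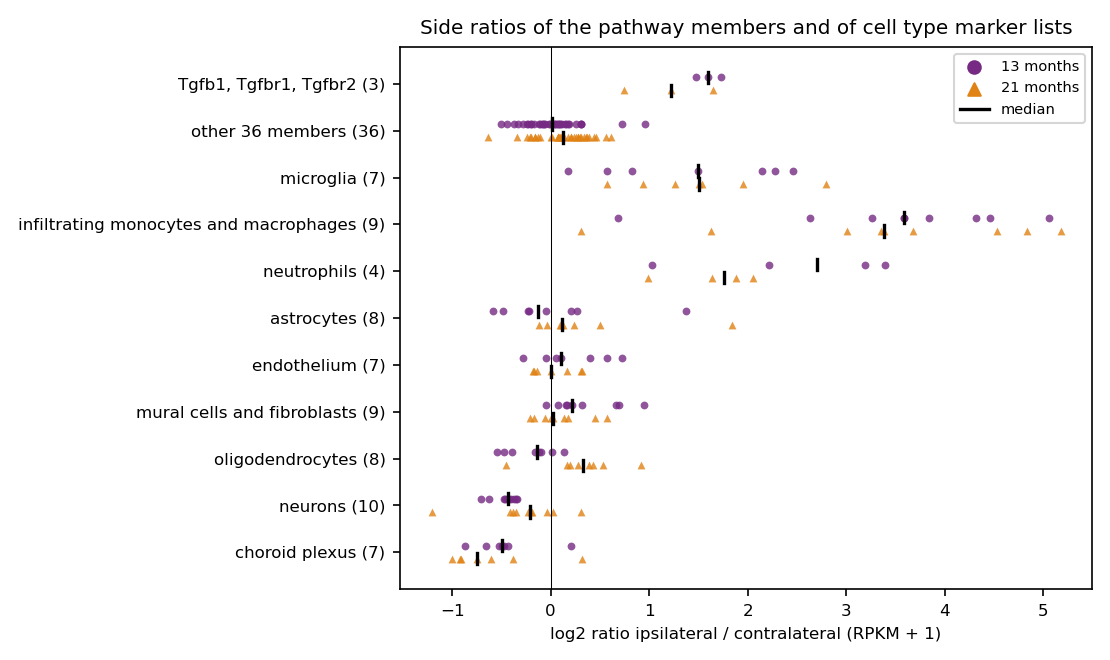
Log2 side ratios of Tgfb1, Tgfbr1 and Tgfbr2, of the other 36 members with a mean of at least 1 RPKM, and of cell type marker lists, 1 point per gene, circles at 13 months and triangles at 21 months, with the median as a bar; the number of genes is in parentheses. The 3 genes lie in the range of the microglia markers, whose medians are 1.50 at both ages, and below most monocyte and macrophage markers, with medians of 3.59 and 3.38.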

How the data were processed

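Polyadenylated RNA of ipsilateral and contralateral brain at 13 and 21 months was sequenced in 4 libraries. Per the labels' protocols, 10 µg of total RNA per sample entered directional libraries, and products of 200 to 500 bp were kept. The deposited values are RPKM made by the authors, rounded to 2 decimals. Of tools, cutadapt, TopHat2 and edgeR appear in the submitters' processing notes, with no version, as does GRCh38, a human build, although the gene identifiers are rat, so the build is not settled. How reads were counted, and with which strand setting, is not given in the sources used here; reads of overlapping genes may be shared. Read counts and depths were not used here, so no counting intervals are given.

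The scale was log2(RPKM + 1), over the 12160 genes averaging 1 RPKM or more, leaving out 5693. Side and age ratios compare single libraries, called at 2-fold, with no test. limma 3.58.1 (R 4.3.3, eBayes, two-sided, Benjamini-Hochberg threshold 0.05 over all 12160 genes) modelled side and, additively, age. Tested on simulated data for this comparison, with 12160 genes and the spread of the fit, it recovered 99 of 100 genes changed by a log2 of 1 and 100 of 100 changed by 2, with 7 calls among the unchanged genes. The simulated spread came from this same fit and held no variation between animals. The simulation therefore cannot show how reliable the calls are with 1 library per group. No fit was made for age, since the sides may share rats. Members, lists and tests were chosen with earlier results of these data known. Values in all libraries are given for members past 2-fold or called by limma, for the extremes of each role and for a chosen set of main ligands, receptors, antagonists and Smads; of the other pathway lists the extremes and called genes are named, and of the marker lists a selection. Of the genes first listed, 2 are not reported here and were left out of the lists' counts. Promoter windows are from RefSeq on GRCr8, matched by symbol. Alternatives were another pseudocount, filter, scaling, threshold and variance trend.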

Additional observations from a re-analysis of the deposited data

How the results depend on the processing

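The fitted side differences of the 5 members that rose, and of Fst, kept their direction under every alternative run, while medians near 0 crossed it: the members' median side ratio at 13 months was -0.04 with mitochondrial genes left out of the scaling. At a 1.5-fold threshold in place of 2-fold, 5 of the 39 members were higher on the ipsilateral side at 13 months (13% of all genes), 4 at 21 months (13%) and 4 at both ages (9.04%), 1 was lower at 21 months (1.8%), and between ages on the ipsilateral side 1 was higher (4%) and 2 were lower (4.21%). With no filter on low values the members' median side ratio at 21 months was 0.0765, and 0 members rose in limma, with adjusted p of 0.0866 for Tgfb1, 0.110 for Tgfbr1, 0.209 for Tgfbr2, 0.138 for Bmp1 and 0.166 for Bmp2k; over all 17853 genes limma then called 0, and at an unadjusted p under 0.05 found 2641 higher and 719 lower. The number of members that fell was 1 (Fst) with a pseudocount of 0.1 RPKM (0.839% of all genes), with median-ratio scaling (1.75%) and at an unadjusted p under 0.05 (4.47%). Over all genes limma called 1618 higher and 99 lower; with a mean of at least 5 RPKM this was 841 and 40, and with median-ratio scaling 1572 and 213. No scaling moved the median of all genes by over 0.1. No library could be left out, since each group has 1. Depth is unknown, so ratios of genes near 1 RPKM are the least certain.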

Other observations

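Several genes of the pathway lists had values that stand apart from those of their close partners. Col1a2, which encodes the partner chain of Col1a1 in type I collagen, was listed at 0 in both ipsilateral libraries and at 0.01 RPKM in both contralateral ones, while Col1a1 had 3.14, 1.15, 2.17 and 1.13 RPKM in ipsilateral and contralateral tissue at 13 and then at 21 months. Map3k7, which encodes the TGF-beta-activated kinase TAK1, had 0.10, 0.15, 0.11 and 0.06 RPKM in the same order. Postn, a matrix protein of fibroblasts, had 7.26, 1.10, 3.65 and 0.96 RPKM and an ipsilateral age ratio of -0.83, close to that of Dab2, at -0.86, and of Col3a1, at -0.78. Cdkn1a, a cell cycle inhibitor linked to ageing, had 3.86, 2.02, 6.33 and 3.47 RPKM, with age ratios of 0.59 ipsilaterally and 0.57 contralaterally; 99.3% of all genes had a contralateral age ratio at or below that of Cdkn1a. None of these age ratios has a test.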
